A study of Mus musculus with 13 samples.

Results

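The expression of 9 interferon-stimulated genes, Rtp4, Isg15, Ifit1, Ifit3, Irf7, Usp18, Oasl2, Bst2 and Ifi27, was followed in interscapular brown adipose tissue (iBAT) of 13 mice. The genes were chosen by name and matched to the Ensembl identifiers of the count files through their mouse symbols. All 9 were found among 42416 identifiers, and all 9 were among the 13360 genes that passed the filter on low counts. Groups of mice were compared by genotype, to ask whether loss of the AXL receptor tyrosine kinase from fat cells changes the transcripts of the depot. The libraries labelled iFAXLKO (n = 8) came from mice with loxP sites around Axl and Cre, and the WT libraries (n = 5) from mice with the same floxed Axl and no Cre. Per the paper, the mice were female and young adult when the deletion was induced. Their Axl line was founded by crossing chimeras with C57Bl6 mice. Cre came from an Adipoq-CreERT2 transgene on a bacterial artificial chromosome. It is therefore driven in fat cells, while the counts cover every cell type of the depot. Housing was at room temperature with a high-fat diet (HFD), and tamoxifen was given at intervals of 3 weeks to both groups, Cre-negative mice included. The labels do not give the length of the HFD before these samples were taken, or the age at collection.

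Type I interferons bind the receptor pair IFNAR1 and IFNAR2, and the kinases JAK1 and TYK2 then pass the signal to transcription factors that bind the interferon-stimulated response element (ISRE) in promoters of antiviral genes. Type II interferon acts through a separate receptor and mainly through GAS elements. AXL belongs to the TAM receptors, which are known in myeloid cells to dampen interferon and Toll-like receptor signalling.

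Stretches of 4 of the 9 promoters are printed, to show what an ISRE match looks like in the genes where one was found. Each stretch is from RefSeq (GRCm38.p6), is written 5′ to 3′ on the strand of its gene, and has in capitals every pair of GAAA copies that are 2 bases apart, on either strand. The Isg15 stretch, chr4:156200855-156200916 on the minus strand, lies at -98 to -37 from the RefSeq start and holds 3 overlapping matches. The Ifit1 stretch, chr19:34640765-34640833 on the plus strand, lies at -124 to -56 and holds 2 matches. Ifit3 has 2 matches as well, in chr19:34583353-34583436 on the plus strand at -176 to -93. In Bst2, chr8:71537567-71537622 on the minus strand at -150 to -95, 2 matches overlap.
Isg15: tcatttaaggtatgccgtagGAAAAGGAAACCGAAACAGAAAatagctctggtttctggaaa
Ifit1: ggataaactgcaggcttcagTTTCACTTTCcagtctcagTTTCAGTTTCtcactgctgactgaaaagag
Ifit3: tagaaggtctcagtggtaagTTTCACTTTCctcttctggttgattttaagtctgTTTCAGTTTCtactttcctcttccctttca
Bst2: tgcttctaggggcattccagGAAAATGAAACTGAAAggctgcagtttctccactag

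Of the 9 genes, 6 had an entry in the RefSeq promoter table, and 4 of these 6 held an ISRE match in the 250 bases before the start. The same letters were found in 3.46% of 27025 genes, counting any promoter of a gene, and in 2.98% of 32851 promoters. Irf7 and Oasl2 had no match in that window, and Rtp4, Usp18 and Ifi27 had no entry. The GAS letters TTCNNNGAA were found in 1 of the 6, Bst2, in 8.13% of all genes and in 7.02% of all promoters. These are matches of letters, not measured binding.

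None of the 9 genes passed the test between libraries labelled iFAXLKO and WT. At an adjusted p under 0.05 (edgeR quasi-likelihood test, Benjamini-Hochberg over all genes), 0 of 9 were called, where 0.127% of all genes tested were called (0.0973% higher and 0.0299% lower in iFAXLKO). At an unadjusted p under 0.05 the count was also 0 of 9, against 7.38% of all genes (3.84% higher and 3.54% lower), and DESeq2 and limma-voom called 0 of 9 too. Fitted log2 fold changes were above 0 for 3 genes and below 0 for 6, with a median of -0.11, beside -0.01 over all genes. In each of the 9 the CPM ranges of the groups overlapped, as they did in all but 0.434% of genes. CPM are counts per M counts in a library, scaled with TMM factors.

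Total counts were between 22.4 and 32.6 M per library, where a count of 0 allows up to 0.0920 to 0.134 CPM. The 8 genes other than Ifi27 had between 59 and 1273 counts in a library. The labelled tissue was borne out by its markers, with Ucp1, the uncoupling protein of brown fat, between 4030 and 7894 CPM. Axl itself was at 33.1 ± 6.16 CPM in libraries labelled iFAXLKO and 27.8 ± 3.82 CPM in WT (SD, n = 8 and n = 5). It was above the WT mean in 6 of 8 libraries, with a log2 fold change of 0.25 (SE 0.13, edgeR adjusted p = 0.699). The targeted gene thus went against the label of the deletion at the level of whole-gene counts, and this applies to every direction given here. In bulk tissue fewer cells of a type and less RNA per cell cannot be told apart, and Axl of fat cells and of other cells enter 1 count. Which exons the loxP sites flank was not used here. The paper gives a western blot of AXL protein for both genotypes, in the mature fraction of inguinal white fat. That is another depot and another molecule than the counts given here.

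**Figure D1:**
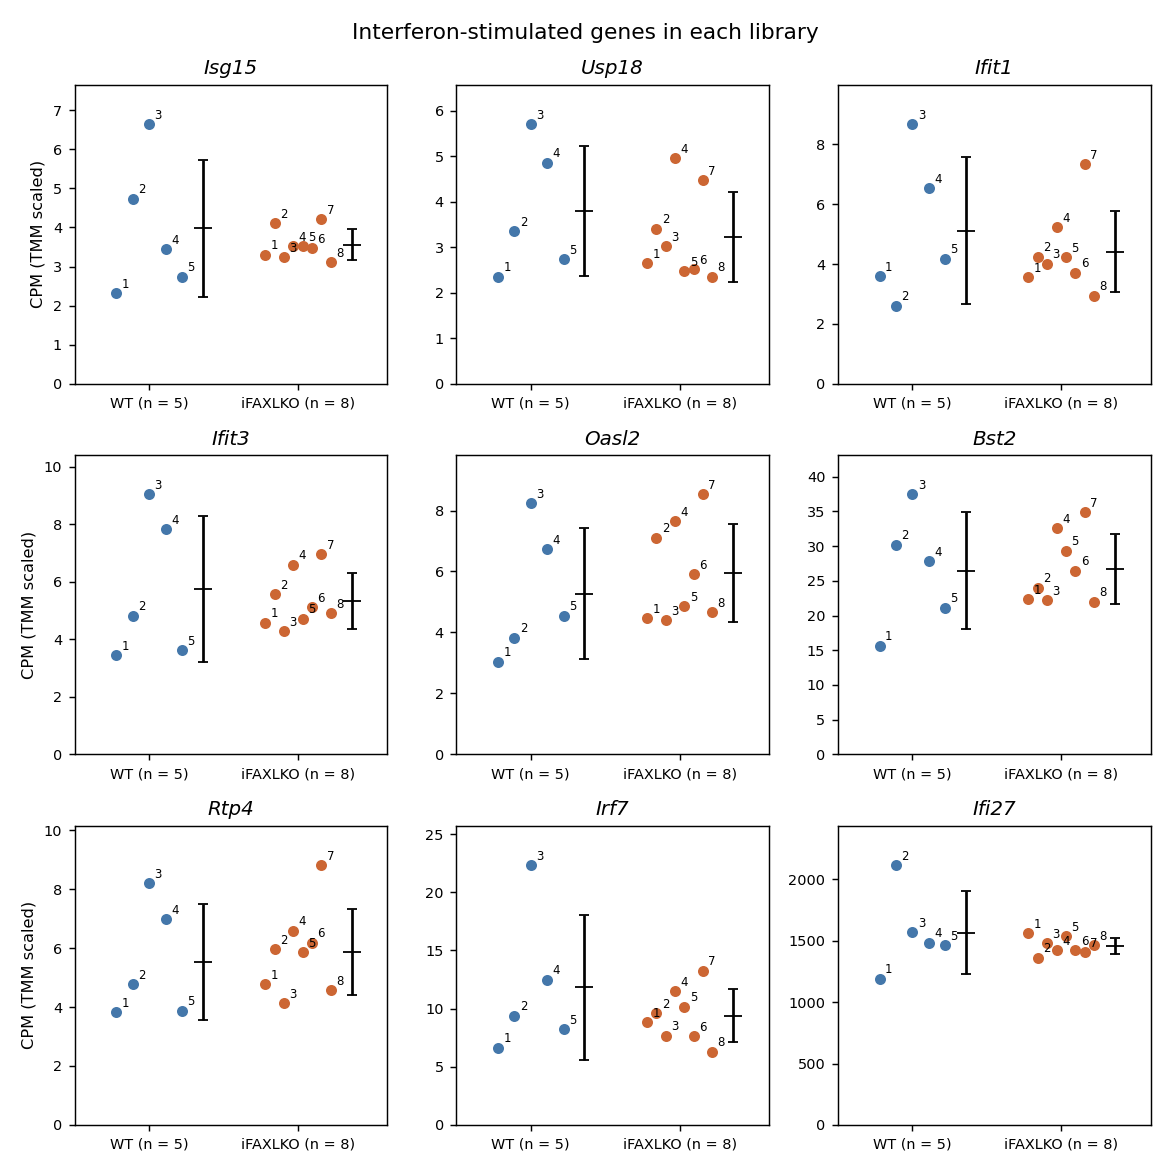
CPM of each interferon-stimulated gene in the 5 WT and 8 iFAXLKO libraries (points, numbered by replicate), with the group mean and SD as black bars. The groups overlap in every panel, and WT replicate 3 is the highest library in 6 of the 9.

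Isg15 and Usp18 form the ISG15 arm of the response. Isg15 (chr4:156199424-156200818, minus strand) encodes a ubiquitin-like protein that is attached to other proteins. In WT replicates 1 to 5, Isg15 was at 2.32, 4.74, 6.65, 3.44 and 2.74 CPM, and in iFAXLKO it was between 3.10 and 4.21 with a median of 3.49 CPM. The WT libraries enclosed the whole iFAXLKO range on both sides. Means were 3.56 ± 0.397 CPM in iFAXLKO and 3.98 ± 1.75 CPM in WT, a log2 fold change of -0.16 (SE 0.21, edgeR adjusted p = 0.919). Usp18 (chr6:121245906-121270917, plus strand) encodes the protease that removes ISG15 and also blocks signalling at IFNAR2. Its WT values were 2.36, 3.35, 5.71, 4.85 and 2.74 CPM, beside 2.35 to 4.95 with a median of 2.83 CPM in iFAXLKO. The WT replicates 3 and 4 and iFAXLKO replicates 4 and 7 stood above the rest. The log2 fold change of Usp18 was -0.24 (SE 0.24, edgeR adjusted p = 0.890), and 2 of 8 iFAXLKO libraries lay above the WT mean.

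Ifit1 and Ifit3, neighbours on chromosome 19, encode proteins with tetratricopeptide repeats that bind foreign RNA. Ifit1 (chr19:34640871-34650009, plus strand) was at 3.60, 2.61, 8.68, 6.53 and 4.17 CPM in the WT replicates, and between 2.95 and 7.33 with a median of 4.12 CPM in iFAXLKO. The highest library was WT replicate 3 and the lowest WT replicate 2. Its log2 fold change was -0.22 (SE 0.27, edgeR adjusted p = 0.911). Ifit3 (chr19:34583531-34588731, plus strand) was at 3.44, 4.82, 9.03, 7.83 and 3.63 CPM in WT and between 4.27 and 6.95, median 5.01, in iFAXLKO. Again the WT libraries held both extremes. The log2 fold change of Ifit3 was -0.11 (SE 0.22, edgeR adjusted p = 0.961), and its reads may be split with the near-identical Ifit3b. Oasl2 (chr5:114896936-114912234, plus strand), of the gene family of the enzymes that make 2-5A, had the highest fitted fold change of the 9. Its WT values were 3.04, 3.82, 8.24, 6.72 and 4.55 CPM, and iFAXLKO ranged from 4.40 to 8.53 with a median of 5.39 CPM. The top libraries were iFAXLKO 7 and WT 3. The log2 fold change was 0.17 (SE 0.24, 95% interval -0.34 to 0.68, edgeR adjusted p = 0.932), and the exact permutation p of the difference in means was 0.409.

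Bst2 (chr8:71534255-71537456, minus strand) encodes tetherin, a membrane protein that holds budding virus at the cell surface. It was at 15.6, 30.2, 37.4, 27.8 and 21.1 CPM in WT and between 21.97 and 34.9, median 25.2, in iFAXLKO. The means were nearly equal, 26.7 ± 5.02 CPM in iFAXLKO and 26.5 ± 8.40 CPM in WT. Its log2 fold change was 0.01 with a 95% interval of -0.37 to 0.40 (edgeR adjusted p = 0.993). Rtp4 (chr16:23520291-23614222, plus strand) encodes an interferon-induced transporter chaperone of receptors. Rtp4 was at 3.83, 4.78, 8.21, 6.99 and 3.88 CPM in WT and between 4.14 and 8.83, median 5.92, in iFAXLKO. The single highest library was iFAXLKO replicate 7 and the lowest WT replicate 1. Its log2 fold change was 0.08 (SE 0.21, edgeR adjusted p = 0.972). The gene lies 362.3 kb from Adipoq, whose locus gave the Cre transgene its promoter.

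Irf7 (chr7:141262706-141266481, minus strand) encodes the transcription factor that amplifies type I interferon genes. In WT replicates 1 to 5 it was at 6.64, 9.39, 22.4, 12.5 and 8.22 CPM, and in iFAXLKO between 6.29 and 13.3 with a median of 9.22 CPM. WT replicate 3 was above every other library, and the group medians were close at 9.39 and 9.22 CPM. The means of 9.37 ± 2.27 CPM in iFAXLKO and 11.8 ± 6.27 CPM in WT gave the lowest fold change of the set, -0.34 on the log2 scale (95% interval -0.89 to 0.21, edgeR adjusted p = 0.840). The exact permutation p was 0.440. The gene overlaps Phrf1 on the opposite strand, which was at 49.5 CPM. The overlap is short, from 141262706 to 141262750, beside an Irf7 exon length of 3776 bases. The strand setting of the counting is not given, so reads of that stretch may be shared.

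Ifi27 (chr12:103434211-103440239, plus strand), also called ISG12a, encodes a small mitochondrial and nuclear envelope protein. It was by far the most abundant of the 9, at 1193, 2118, 1572, 1483 and 1464 CPM in WT and between 1361 and 1560, median 1445, in iFAXLKO. WT replicate 2 was the highest library and WT replicate 1 the lowest. Means were 1457 ± 67.4 CPM in iFAXLKO and 1566 ± 340 CPM in WT, a log2 fold change of -0.10 (SE 0.11, edgeR adjusted p = 0.897). None of the 8 iFAXLKO libraries was above the WT mean, which WT replicate 2 raised, and the fold change was 0.03 without that library.

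Per exon length, Ifi27 at 1022 RPKM and Bst2 at 29.5 RPKM were the 2 highest, where RPKM are CPM per kilobase of exon. They were followed by Isg15 at 4.92 RPKM, Ifit3 at 3.15, Irf7 at 2.73, Rtp4 at 2.69, Ifit1 at 1.76, Usp18 at 1.24 and Oasl2 at 0.893 (means over 13 libraries). The ranges of Ifi27 and Bst2 did not overlap, nor did those of Bst2 and Isg15. From Isg15 downward, every gene's range overlapped with that of the next, and Irf7 exceeded Rtp4 in 6 of 13 libraries.

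Apart from Ifi27, the genes moved together from mouse to mouse within groups. For the 28 pairs of the 8 other genes, Pearson's r of log2 CPM with group means subtracted was between 0.48 and 0.93, with a median of 0.84 (n = 13 libraries). All 28 stayed positive without WT replicate 3, from 0.10 to 0.90, and 27 of 28 without iFAXLKO replicate 7 as well. Ifi27 with the others gave a range of -0.29 to 0.53 and a median of 0.12. The genes share libraries and low counts, so these values are descriptions. The median SD of log2 CPM within groups was 0.43 for the 9 genes and 0.21 for all genes tested, and 10.6% of all genes were above the former.

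**Figure D2:**
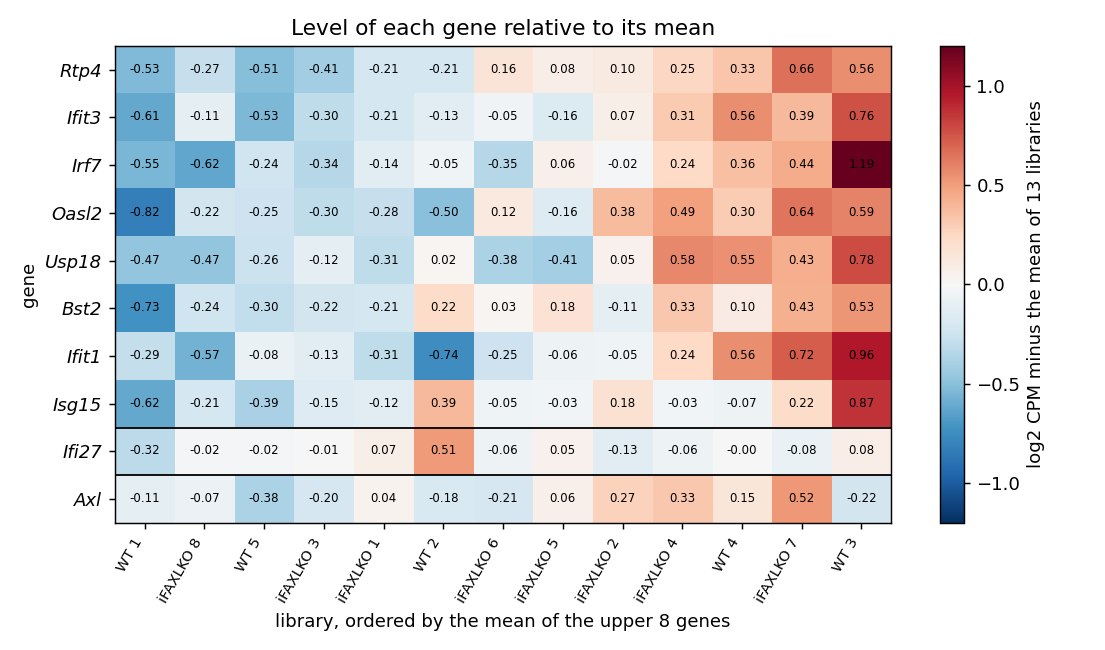
Log2 CPM of each interferon-stimulated gene, and of Axl, minus its mean over 13 libraries (colour and printed values), with libraries ordered by the mean of the upper 8 genes. WT replicates 1 and 3 stand at opposite ends, at -0.58 and 0.78.

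WT replicate 3 was the library that stood highest. It ranked first for 6 of the 8 genes other than Ifi27 and in the top 3 for 8 of 8, and iFAXLKO replicate 7 ranked first for the other 2. WT replicate 1 was in the bottom 3 for 7 of 8. Averaged over the 8 genes, log2 CPM was 0.78 above the mean of all libraries in WT replicate 3, 0.49 in iFAXLKO 7, 0.34 in WT 4 and 0.30 in iFAXLKO 4. It was -0.58 in WT replicate 1. Both ends of the order were thus WT mice.

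The direction of the group difference depended on WT replicate 3. Without it, 7 of the 9 fold changes were above 0, from -0.08 to 0.41, with a median of 0.13, and none had an unadjusted p under 0.05 (lowest edgeR adjusted p = 0.750). Library numbers in the labels, which are not said to be batches, gave another split. Among the lower numbers (4 iFAXLKO and 2 WT) the log2 difference was above 0 for 8 of the 9 genes, from -0.13 to 0.73. Among the upper numbers, which hold WT replicates 3 to 5, it was below 0 for 8 of 9, from -0.56 to 0.03 (4 iFAXLKO and 3 WT).

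Macrophage markers moved with the group. All 10 of 10 markers were higher in the libraries labelled iFAXLKO, beside 46.4% of all genes tested, with a median log2 fold change of 0.40. Of these markers, 9 had an edgeR unadjusted p under 0.05, beside 3.84% of all genes higher at that limit, and 0 were called. Their summed level was 148 to 275 CPM in iFAXLKO and 121 to 174 CPM in WT, and iFAXLKO replicate 7 had the highest sum. WT replicate 3, the highest for the interferon-stimulated genes, had a sum of 157 CPM. Fibroblast markers were likewise higher in 6 of 6, with a larger median log2 fold change of 0.69. All 6 had an edgeR unadjusted p under 0.05, and 0 were called. Their summed levels were 387 to 901 CPM against 284 to 515 CPM. Endothelial markers were higher in 5 of 6 and erythroid markers in 5 of 5. The other way went brown adipocyte markers, higher in 3 of 10, and skeletal muscle markers, higher in 1 of 10. Adipocyte markers were higher in 1 of 5, and 1 of the 5 was called at an adjusted p under 0.05. Adipoq ran from 879 to 1300 CPM in iFAXLKO and from 621 to 865 CPM in WT. Markers of a cell type share libraries and are not separate observations. Skeletal muscle markers summed to between 2.55 and 4332 CPM over all libraries. Siglech, which marks plasmacytoid dendritic cells, the cells known for making type I interferon, was at 0.0725 to 0.604 CPM. Of the 5 markers listed for these cells, only Cox6a2 was tested, at 0.0398 to 37.6 CPM with a log2 fold change of -0.14. Ccr9, Klk1 and Pacsin1 were at 0 in some libraries. The sum of the 5 was highest in iFAXLKO replicate 5 (37.9 CPM), as was that of the skeletal muscle markers.

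With the macrophage score (mean log2 CPM of the markers) as a covariate, all 9 fold changes were below 0, from -0.86 to -0.08. Of these, 4 had an unadjusted p under 0.05, Usp18 at -0.83, Irf7 at -0.86, Ifit1 at -0.81 and Ifit3 at -0.52, beside 2.66% of all 13360 genes in the same fit. None was called, the lowest edgeR adjusted p being 0.842. The genes other than Ifi27 moved together within groups, so these 4 are not separate observations. The score itself differed between the groups, so group and score are partly confounded in this fit. The part of fibroblasts in these values was not tested.

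**Figure D3:**
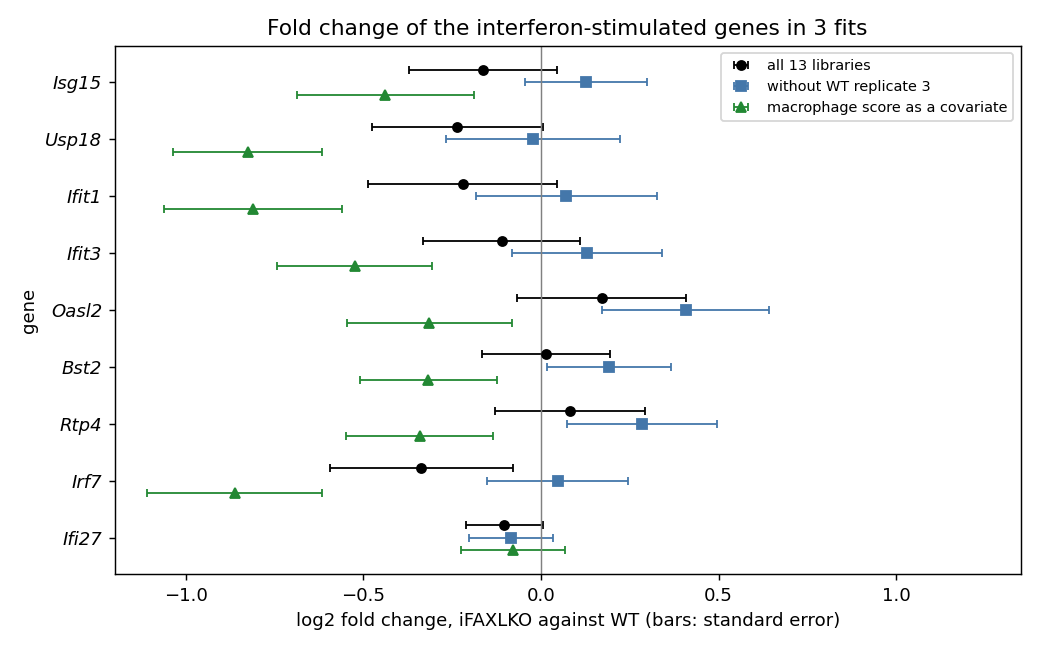
Log2 fold change of each gene, iFAXLKO against WT, with its standard error, in all 13 libraries (circles), without WT replicate 3 (squares) and with the macrophage score as a covariate (triangles). The squares lie right of the circles for each gene, and the triangles lie left of them for each gene except Ifi27.

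The ligands that were listed were close to absent from the counts. Of the Ifna genes, only Ifna1, Ifna2, Ifna4 and Ifna5 were looked at. Of 10 interferon genes listed, 9, Ifnb1 among them, had no count in any library, and Ifng had 8 counts in 3 libraries. Levels under the floor given above were not detectable at this depth.

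Receptors, kinases and STATs were measured for all 12 listed genes, of which 8 were higher and 4 lower in libraries labelled iFAXLKO, with a median log2 fold change of 0.09 and none called. The lambda interferon receptor Ifnlr1 had the smallest p, at 1.18 ± 0.202 against 0.875 ± 0.169 CPM (log2 fold change 0.43, edgeR adjusted p = 0.621). Ifnlr1 lay at the filter of 1 CPM, with medians of 1.17 CPM in iFAXLKO and 0.970 CPM in WT. It thus passed the filter mainly through the libraries labelled iFAXLKO, and its difference cannot be read apart from that. Ifngr1, a chain of the type II receptor, was at 120 ± 28.4 against 99.0 ± 5.71 CPM (edgeR adjusted p = 0.707). Jak1 had a log2 fold change of -0.15 and Ifnar1 of -0.08, with edgeR adjusted p = 0.753 and 0.863. Among nucleic acid sensors and their adaptors, 13 of 16 were tested, 10 higher and 3 lower, with a median of 0.09 and none called. The DNA sensor gene Ifi204 and the RNA sensor gene Tlr7 both had a log2 fold change of 0.57 (SE 0.24 and 0.26, edgeR adjusted p = 0.621 and 0.652). Tlr7 also passed the filter mainly through iFAXLKO, with medians of 1.43 CPM there and 0.912 CPM in WT. Cgas, named after its values were seen, lay at the filter too, with medians of 1.02 CPM in iFAXLKO and 0.853 CPM in WT. Ifnlr1, Tlr7 and Cgas are counted as higher in their lists. Those counts and medians thus include directions that the filter may have favoured. The kinase gene Tbk1 was at -0.18 and the adaptor gene Mavs at -0.11, with edgeR adjusted p = 0.657 and 0.779.

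For the enzymes that attach ISG15, none of the 4 was called, and the fitted log2 fold changes had a median of 0.27. Herc6, a ligase for ISG15 named after its values were seen, was at 7.18 ± 1.79 CPM in iFAXLKO and 7.13 ± 2.55 CPM in WT. Uba7, the activating enzyme, was at 26.4 ± 5.05 against 21.0 ± 2.52 CPM, and 8 of 8 libraries labelled iFAXLKO were above the WT mean (log2 fold change 0.33, SE 0.13, edgeR adjusted p = 0.551). Ube2l6, the conjugating enzyme, was at 10.3 ± 2.02 against 8.22 ± 1.29 CPM (0.33, SE 0.14, edgeR adjusted p = 0.628). With the macrophage score as a covariate the median of the 4 was 0.01.

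Other type I interferon targets gave 29 higher and 14 lower of 43 tested, a median of 0.06 and none called or at an unadjusted p under 0.05. Mx2, named after its values were seen, is counted as higher and lay at the filter, with medians of 1.51 CPM in iFAXLKO and 0.869 CPM in WT. The count of higher genes was 38 of 43 without WT replicate 3, 16 of 43 under limma-voom with sample quality weights and 6 of 43 with the macrophage score. The median was below 0 under limma-voom (-0.04), with the macrophage score (-0.16) and without WT replicate 2 (-0.01). Ifi27l2a, a relative of Ifi27, was at 515 ± 141 against 360 ± 151 CPM (log2 fold change 0.52, edgeR adjusted p = 0.715). The others named by p were Parp12 at 0.18, Oasl1 at -0.41 and Ifi44 at -0.30 on the log2 scale, with edgeR adjusted p of 0.709, 0.832 and 0.857.

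Of 26 type II interferon targets tested, 24 were higher and 2 lower, with a median log2 fold change of 0.29 beside 46.4% of all genes higher. None was called, and 4 had an unadjusted p under 0.05, which is 15.4% beside 3.84% of all genes higher at that limit. The 26 genes share the same 13 libraries, and how far they vary together was not tested. They are thus not separate observations, and these shares are descriptions. Irf1, a transcription factor of the response, was at 30.7 ± 3.77 against 25.4 ± 1.89 CPM and above the WT mean in 8 of 8 libraries (log2 fold change 0.28, SE 0.09, edgeR adjusted p = 0.490). Psmb8, a subunit of the immunoproteasome, was at 14.7 ± 3.06 against 11.5 ± 1.49 CPM (0.36, SE 0.14, edgeR adjusted p = 0.551). Cd274, which encodes PD-L1, was at -0.11 and Gbp6 at -0.01. Leaving out 1 library at a time gave 23 to 25 of 26 higher and a median of 0.20 to 0.37, while the median was 0.05 with the macrophage score and 0.16 under limma-voom. Genes that restrain the pathway were split, 7 higher and 6 lower of 13 with a median of 0.00. Samhd1, which hydrolyses nucleotides, was at 39.8 ± 5.27 against 33.1 ± 5.59 CPM (log2 fold change 0.27, edgeR adjusted p = 0.628). Ptpn2 was at 0.10, Rnaseh2b at -0.11 and Usp25 at -0.07.

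**Figure D4:**
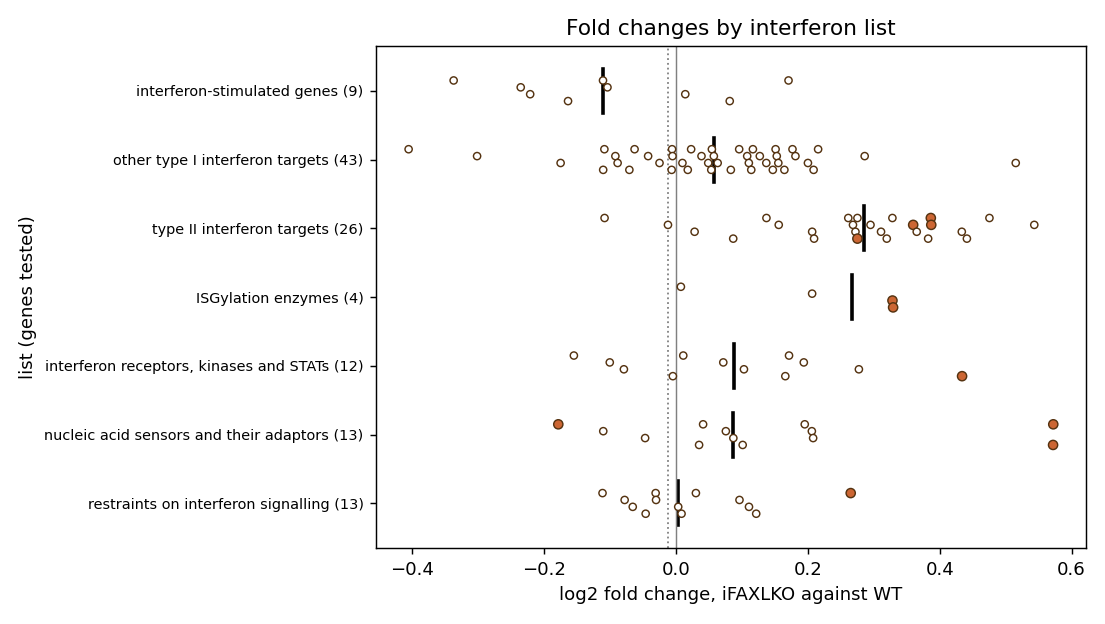
Log2 fold change, iFAXLKO against WT, of each gene tested in 7 interferon lists (points; filled where the unadjusted p was under 0.05), with list medians as bars and the median of all genes as a dotted line. No gene was called, and the medians run from -0.11 for the interferon-stimulated genes to 0.29 for type II targets.

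Axl was compared with each of the 9 genes within groups, in 9 relations over 13 libraries. Pearson's r was 0.62 for Usp18 (permutation p = 0.0241) and 0.61 for Rtp4 (permutation p = 0.0267). It was 0.54 for Oasl2, 0.54 for Ifit3, 0.53 for Ifit1, 0.48 for Irf7, 0.39 for Bst2, 0.19 for Isg15 and -0.17 for Ifi27. After Benjamini-Hochberg adjustment over the 9, the lowest permutation p was 0.115 for r and 0.237 for Spearman's rho, so none passed. Without iFAXLKO replicates 7 and 4, whose Axl lay farthest from its median, the 8 positive values fell to between 0.07 and 0.39, so they rest in part on those libraries. Single libraries also decided the count, with 4 of the 9 below an adjusted permutation p of 0.05 without WT replicate 1 and 6 without WT replicate 3. The value for Rtp4 within library numbers was 0.81 in the lower and 0.68 in the upper range, and for Usp18 it was 0.47 and 0.71.

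The genes whose pattern was most like the mean z-score of the 9, over 13 libraries with group means subtracted, were Cpt1c (r = 0.91), AW112010 (0.88), Oas1b (0.86), Cmpk2 (0.86) and Eef2 (0.83). They were followed by Abcc8 (0.82), Hdc (0.82), Catsper2 (0.81), Rbm12b2 (0.81) and Trim30a (0.81). Oas1b, Cmpk2 and Trim30a are known type I interferon targets and were in the lists above, and 10 of the first 40 of 13351 genes were in the lists. The interferon lists beside the 9 held 43, 26, 13, 13, 12 and 4 tested genes, a small part of the 13351. The values are descriptions over libraries that share WT replicate 3.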

How the data were processed

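Bulk RNA of snap-frozen iBAT was sequenced, 1 library per sample. The deposited files hold raw read counts per Ensembl gene identifier, made by the authors. The submitters' processing notes name bcl2fastq 2.20, fastp 0.20.0, STAR 2.7.4a, DESeq2 and GRCm38.p6, whereas the study's methods name Trim Galore and hisat2. Counting tool and strand setting are not given in the sources used here. Labels give polyadenylated RNA and TruSeq libraries; the methods give ribosomal RNA depletion.

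GENCODE M21 (GRCm38) gave symbols and positions for 42347 identifiers. Genes above 1 CPM in 5 or more libraries were tested with edgeR 4.0.16 in R 4.3.3 (TMM factors, robust quasi-likelihood F test, 2-sided, Benjamini-Hochberg over 13360 genes). SE is the log2 fold change divided by the square root of F. Log2 CPM used a prior count of 2. Exact permutation tests ran over all 1287 assignments of group labels (smallest p 0.000777), and correlations used 100000 permutations. The edgeR fit was tested on simulated counts. Labels number the samples as replicates without saying more, so p-values measure the spread between these samples. Floors and counts cover counting error only, since no molecular identifiers are described. No pair of libraries of a group agreed within sampling noise (lowest chi-square per degree of freedom 15.3 over 38 pairs).

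Members, lists and tests were chosen with earlier results of these data known. Named are all 9 members, Axl, the 2 genes with the smallest p in each direction per list and the 10 genes most like the members. Marker genes were named where a result turned on them, and Herc6, Cgas and Mx2 after their values were seen. Alternatives were RLE and upper quartile factors, DESeq2 1.42.0, limma-voom 3.58.1, no filter, filterByExpr, a replicate block, library number, muscle and macrophage scores, and each library left out. For the Axl relations, libraries were left out after seeing the data. Promoters came from RefSeq.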

Additional observations from a re-analysis of the deposited data

How the results depend on the processing

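No interferon-stimulated gene and no gene of the other lists was called under any of 10 other fits or without any of the 13 libraries. The median log2 fold change of the 9 genes was between -0.25 (without WT replicate 1) and 0.13 (without WT replicate 3), and -0.44 with the macrophage score. Over all genes, 17 were called, beside 67 with DESeq2, 10 with the macrophage score and 14 to 19 with a library left out. Direction turned for Rtp4 under limma-voom (-0.066), and with the macrophage score for Rtp4 (-0.34), Oasl2 (-0.31) and Bst2 (-0.32). With a library left out, fold changes ran from -0.13 to 0.19 for Bst2, -0.027 to 0.29 for Rtp4, -0.19 to 0.029 for Ifi27, -0.31 to 0.13 for Isg15, -0.39 to 0.071 for Ifit1, -0.25 to 0.13 for Ifit3 and -0.49 to 0.047 for Irf7. The number of Axl relations past the adjusted threshold ran from 0 to 6. The causes were not tested. At an unadjusted p under 0.05, 986 genes passed, beside 355 with the macrophage score and 1594 without WT replicate 2.

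The labels do not say that the replicate numbers pair the samples. Deviations of same-numbered samples correlated at 0.39, 0.42, 0.19, 0.18 and -0.61. Differently numbered samples were not set beside them, so these values cannot decide whether the samples were paired. With the replicate number as a block, 7 genes were called, 0 of the 9 interferon-stimulated genes among them, the median of the 9 was -0.07, and 18 of 26 type II targets were higher, with a median of 0.09. The order of the list medians was not stable, with type II targets above the ISGylation enzymes in all 13 libraries (0.29 and 0.27) and below them with the block (0.09 and 0.28) and without iFAXLKO replicate 6, iFAXLKO replicate 7 or WT replicate 3.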
